A study of Mus musculus with 2 samples.

Results

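Peaks of tagged Sox4 were examined at 10 genes of the NF-kappaB pathway in mouse progenitor B cells: the 5 transcription factor genes Nfkb1, Nfkb2, Rel, Rela and Relb, the 3 inhibitor genes Nfkbia, Nfkbib and Nfkbie, the kinase gene Ikbkb and the adaptor gene Traf6. The genes were taken by name, with earlier results of these data known. Every peak for which the deposited list names one of them was used. They are 10 of 20953 protein-coding genes that served as the background. The series pairs 1 library of chromatin pulled down with tagged Sox4 (bioChIP) with 1 library of input chromatin. Both came from C57BL/6 progenitor B cells of embryonic fetal liver into which retroviruses had brought, one after the other, BirA (a biotin ligase), the oncogene p190 Bcr-Abl, SE-Cre and Sox4 with a BAP tag, with a sort following each step. The embryonic age is not stated in the labels. The pull-down used streptavidin beads, so the peaks report on introduced, tagged Sox4 in immortalized cells, and chromatin without tagged Sox4 was not analysed here. With 1 library in each group no value has a replicate check, and no test between conditions was possible.

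NF-kappaB proteins are dimers of Rel-family factors that bind short DNA elements called kappaB sites. In resting cells inhibitor proteins of the IkappaB family hold most of them in the cytoplasm. Signals from receptors pass through adaptors such as TRAF6 to the IkappaB kinase, which marks the inhibitors for destruction and lets the dimers enter the nucleus. In B cells the pathway is known for its part in survival, activation and light chain gene activity. Sox4 is an HMG-box factor required in early B-cell development.

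The list held 8730 peaks with 763284 tags (reads) in all and a median of 71.0 tags per peak (quartiles 53.0 and 100). How deeply the libraries were sequenced was not stated. Among marker genes, 6 of 8 progenitor B genes had a peak within 5 kb of a start (Cd79b and Pax5 did not), compared with 1 of 5 T-cell genes (Cd3d), 0 of 4 myeloid, 0 of 3 erythroid and 0 of 4 hepatocyte genes. Of the background genes 32.7% had such a peak. The marker sets are small, and differences between them were not tested. A peak list holds no expression values, so these counts describe binding data only.

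All 10 genes were listed for at least 1 peak, where a listing means that a peak overlapped the gene or stood at most 25 kb outside it. Of the background genes 48.7% were listed. A peak interval covered an annotated start site of 8 of the 10 genes, against 28.3% of background genes. The same 8 were those with a peak within 5 kb of a start, against 32.7% of background genes. These were 4 of the 5 transcription factor genes, all 3 inhibitor genes and Traf6. Nfkb1 and Ikbkb had no peak within 5 kb of a start. In all 17 peaks were listed for the 10 genes, and no peak was listed for more than 1 of them. Of these peaks 8 covered the gene's own start, 5 covered only the start of another gene and 4 covered no start. The plot of peak positions shows the stack of 8 peaks at the starts and the scattered others.

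**Figure D1:**
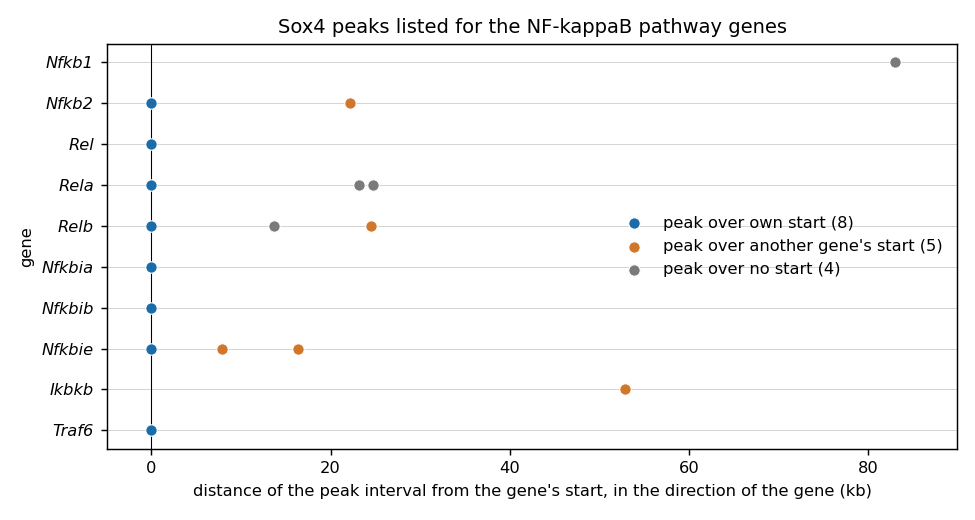
Position of each of the 17 listed peaks (points) on the x axis, as the distance in kb from the nearest annotated start of the gene on the y axis, where 0 means that the peak covers the start. The 8 peaks over the genes' own starts line up at 0, and the farthest peak is that of Nfkb1 at 83.0 kb.

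The promoters of the genes whose starts were covered are shown for 6 cases, chosen because they carry the sequence elements searched for. They run from 250 bases before to 50 bases after the start, 5′ to 3′ on the strand of the gene, and come from the RefSeq promoter table (build GRCm38.p6), whose starts need not be identical to those of the mm9 annotation in the deposited list. The table matched 7 of the 10 genes (9 promoters, of which Nfkb2 has 3). Nfkb1, Relb and Ikbkb were not matched. Capitals mark the NF-kappaB consensus, a pattern of 10 letters known as the kappaB site, and the HMG-box core ACAAAG or ACAATG, each searched on both strands. Matches of the consensus and of the core did not overlap.
Nfkb2 (chr19:46304487-46304786, + strand): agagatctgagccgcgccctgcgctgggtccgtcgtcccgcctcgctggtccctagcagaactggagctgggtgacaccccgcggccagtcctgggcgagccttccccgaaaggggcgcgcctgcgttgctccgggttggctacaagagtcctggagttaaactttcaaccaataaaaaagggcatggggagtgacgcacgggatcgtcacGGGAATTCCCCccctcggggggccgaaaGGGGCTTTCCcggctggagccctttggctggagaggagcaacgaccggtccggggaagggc
Rel (chr11:23770920-23771219, - strand): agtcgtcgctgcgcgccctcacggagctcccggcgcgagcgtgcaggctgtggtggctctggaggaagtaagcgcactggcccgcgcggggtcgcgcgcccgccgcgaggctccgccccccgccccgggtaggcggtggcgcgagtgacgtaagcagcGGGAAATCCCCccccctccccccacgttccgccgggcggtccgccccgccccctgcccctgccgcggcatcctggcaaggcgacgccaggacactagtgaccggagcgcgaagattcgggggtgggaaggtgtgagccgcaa
Nfkbia (chr12:55492598-55492897, - strand): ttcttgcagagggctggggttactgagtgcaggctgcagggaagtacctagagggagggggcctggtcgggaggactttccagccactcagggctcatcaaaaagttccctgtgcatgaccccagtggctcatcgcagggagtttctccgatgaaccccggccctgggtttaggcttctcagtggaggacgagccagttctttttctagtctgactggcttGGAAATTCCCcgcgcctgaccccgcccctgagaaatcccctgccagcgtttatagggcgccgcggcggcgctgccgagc
Nfkbie (chr17:45555450-45555749, + strand): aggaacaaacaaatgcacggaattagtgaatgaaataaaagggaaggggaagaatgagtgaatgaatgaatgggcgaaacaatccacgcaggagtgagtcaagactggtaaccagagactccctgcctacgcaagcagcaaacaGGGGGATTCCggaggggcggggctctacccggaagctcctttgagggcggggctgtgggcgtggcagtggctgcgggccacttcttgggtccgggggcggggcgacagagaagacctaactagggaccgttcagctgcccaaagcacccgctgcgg
Nfkbib (chr7:28766595-28766894, - strand): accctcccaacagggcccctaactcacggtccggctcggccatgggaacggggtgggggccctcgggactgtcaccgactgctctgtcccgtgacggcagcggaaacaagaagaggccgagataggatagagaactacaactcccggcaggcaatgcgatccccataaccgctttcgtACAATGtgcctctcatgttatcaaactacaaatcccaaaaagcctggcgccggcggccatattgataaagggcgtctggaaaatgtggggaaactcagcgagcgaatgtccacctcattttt
Traf6 (chr2:101678170-101678469, + strand): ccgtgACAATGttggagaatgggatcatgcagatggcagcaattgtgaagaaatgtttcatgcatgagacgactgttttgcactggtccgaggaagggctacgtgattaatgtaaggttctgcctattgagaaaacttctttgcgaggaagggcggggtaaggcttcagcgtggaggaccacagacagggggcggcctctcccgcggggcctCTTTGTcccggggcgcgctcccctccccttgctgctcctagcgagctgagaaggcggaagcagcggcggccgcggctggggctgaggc

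The first 4 of these promoters hold the NF-kappaB consensus and no HMG-box core, and the other two hold the core and no consensus. In Nfkb2 the consensus runs from 39 to 29 bases before the start, where 2 positions overlap, and again from 11 to 2 bases before it. In Rel it lies from 92 to 82 bases before the start, again at 2 overlapping positions, in Nfkbia from 29 to 20 bases before it, and in Nfkbie from 106 to 97 bases before it. The core ACAATG stands from 72 to 67 bases before the start of Nfkbib. Traf6 has ACAATG from 245 to 240 bases and, read on the opposite strand, ACAAAG from 38 to 33 bases before the start. The Rela promoter holds neither.

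Counted over all promoters of the table, the share with the kappaB pattern was higher in these genes than in all promoters, and the share with the HMG-box core was near that of all promoters. The consensus was found in 6 of the 9 promoters (66.7%), which belong to 4 of the 7 genes, and the 3 Nfkb2 promoters are near each other and partly hold the same match. It was found in 4.91% of all 20418 promoters of background genes, in 4.91% of the 6206 promoters of genes with a peak over a start, and in 16 of the 79 promoters (20.3%) of the other pathway genes described further on. Counted by gene, the share was 57.1% (4 of 7), against 26.2% of the other pathway genes and 5.65% of background genes with a promoter. The core was found in 2 of the 9 promoters (22.2%). It was found in 5114 of all 20418 promoters and in 20.5% of promoters of genes with a peak over a start. Counted by gene, the share with the core was 28.6%, against 24.6% of the other pathway genes and 28.3% of background genes with a promoter. A match is a description of the letters in this window, not a bound site, and the windows are shorter than most peaks.

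The base composition of the promoters moved with the presence of a peak across all genes. The median ratio of observed to expected CpG was 0.83 in promoters of genes with a peak over a start, 0.39 in promoters of genes with none within 5 kb, and 0.75 in the 9 promoters of the pathway genes. Their median GC content was 64.7%, against 63.3% and 53.3% in these sets. The GC box GGGCGG, searched on both strands, was in 7 of the 9. It was in 70.7% of promoters of genes with a peak over a start, 36.8% of those of genes with none within 5 kb, and 47.7% of all promoters. The part of base composition in the count of 8 of 10 was not tested.

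Among the transcription factor genes, Rel and Relb had the highest scores at their own starts. The score is read as minus 10 log10 of the peak caller's p-value, and fold compares the tags of a peak with the background the caller expected. Scores, folds and tags are the authors' values and rank peaks within this list only. Relb encodes the partner of p52 in the non-canonical arm of the pathway. Its start was covered by a peak at chr7:20213593-20215163 (mm9, as are all peak positions; transcript NM_009046) with 123 tags (exact 95% Poisson interval 102 to 147, counting error only) at fold 3.88 and score 197.9. This score exceeded that of 74.4% of the 5545 peaks over a listed start, whereas the fold exceeded that of 26.7%. Rel encodes c-Rel, a factor of lymphoid cells. Its peak at chr11:23670301-23671487 (NM_009044) had 97 tags (78.7 to 118) at fold 5.10 and score 161.1, above 65.5% of peaks over a start. No other gene was listed for it, and the next peaks lay 74.6 kb and 123 kb away.

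Rela and Nfkb2 had lower scores at the start than Rel and Relb. Rela encodes p65, the main activating subunit of the canonical arm. The peak over its start at chr19:5637067-5637909 (NM_009045) had 64 tags (49.3 to 81.7) at fold 4.49 and score 119.3, near the middle of all peaks over a start (49.1% scored lower). Nfkb2 encodes p100, the precursor of p52. Its peak at chr19:46378535-46379537 had 81 tags (64.3 to 101), the lowest fold of the 8 (3.33) and a score of 68.0, with 15.0% of peaks over a start scoring lower. It covered the first of 3 listed starts (NM_001177369) and ended 648 and 883 bp before the others (NM_019408 and NM_001177370). The promoter printed for Nfkb2 is that of the first start: the 3 starts are spaced by the same 958 and 1193 bp, counted from the first, in the deposited distances and in the promoter table.

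Where a more distant peak gave the position of a start in mm9, the summit of the covering peak lay close to it. The summit was 15 bp inside the gene at Relb and 22 bp inside at Rela. It lay 136 bp before the first start of Nfkb2 and 58 bp before the start of Nfkbie. These 4 genes were the only ones for which the list allowed this reading.

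Nfkb1, which encodes p105, the precursor of p50, had 1 peak, deep in the gene. It lay at chr3:135270994-135271520 (NM_008689) in an exon by the deposited annotation, 82991 bp from the start and 23376 bp before the end. With 35 tags (24.4 to 48.7) at fold 3.72 and score 51.1 it ranked 8589 of 8730 by score. The lowest score in the list was 50.03, so this peak stood just inside the deposited threshold. The next peaks on either side lay 168 kb and 217 kb away.

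All 3 inhibitor genes had a peak over the start. Nfkbia encodes IkappaB-alpha, the inhibitor that NF-kappaB itself induces. Its peak at chr12:56592662-56594056 (NM_010907) had 109 tags (89.5 to 131) at fold 3.59 and score 135.9, above 56.9% of peaks over a start, and its next neighbours lay 44.0 kb and 327 kb away. Nfkbib encodes IkappaB-beta. The peak at chr7:29551200-29551903 (NM_010908) had 56 tags (42.3 to 72.7) at fold 5.33 and score 119.2. It also covered the start of Sirt2, which encodes a deacetylase, so it cannot be given to either gene alone. Nfkbie encodes IkappaB-epsilon. Its peak at chr17:45692290-45692942 (NM_008690) had the fewest tags of the 8 (46, 33.7 to 61.4) at fold 4.19 and score 62.2, and 10.1% of peaks over a start scored lower. The intervals of the tag counts of Nfkbia and Nfkbie do not overlap, nor do those of Nfkbia and Nfkbib. The Nfkbia peak was also wider, with 1394 bp against 703 bp at Nfkbib and 652 bp at Nfkbie. Per kb of peak, Nfkbia had 78.2 tags, Nfkbib 79.7 and Nfkbie 70.6, and the fold was lowest at Nfkbia.

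Ikbkb, the gene of the catalytic kinase subunit IKK-beta, had no peak in the gene. The 1 peak listed for it, at chr8:23763307-23764123, lay 5554 bp past its end and 52932 bp from its start (NM_001159774), and it covered the start of Polb, which encodes DNA polymerase beta and is the closest gene. It had 70 tags (54.6 to 88.4) at fold 3.90 and score 97.0.

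Traf6, which encodes a ubiquitin ligase that relays signals of Toll-like and interleukin receptors, had the highest fold of the 8. Its peak at chr2:101518158-101518973 (NM_009424) had 67 tags (51.9 to 85.1) at fold 6.88 and score 134.0. The fold exceeded that of 88.0% of peaks over a start and the score exceeded that of 56.2%. The next peak on one side was the Rag1 peak, 29.0 kb away.

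Across the 8 peaks over the genes' own starts, tag numbers followed width, and fold did not follow tags. The widths ran from 652 bp (Nfkbie) to 1570 bp (Relb) and the tags from 46 to 123, and ordered by either the genes stood alike except that Rela (842 bp, 64 tags) and Traf6 (815 bp, 67 tags) changed places. Per kb of peak the 8 lay between 70.6 and 82.2 tags, close together. The median was 79.0 tags per kb, against 78.4 for the 5936 background genes with a peak over a start (quartiles 70.9 and 88.5). Relb had 123 tags at a fold of 3.88, while Traf6 had 67 tags at a fold of 6.88.

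**Figure D2:**
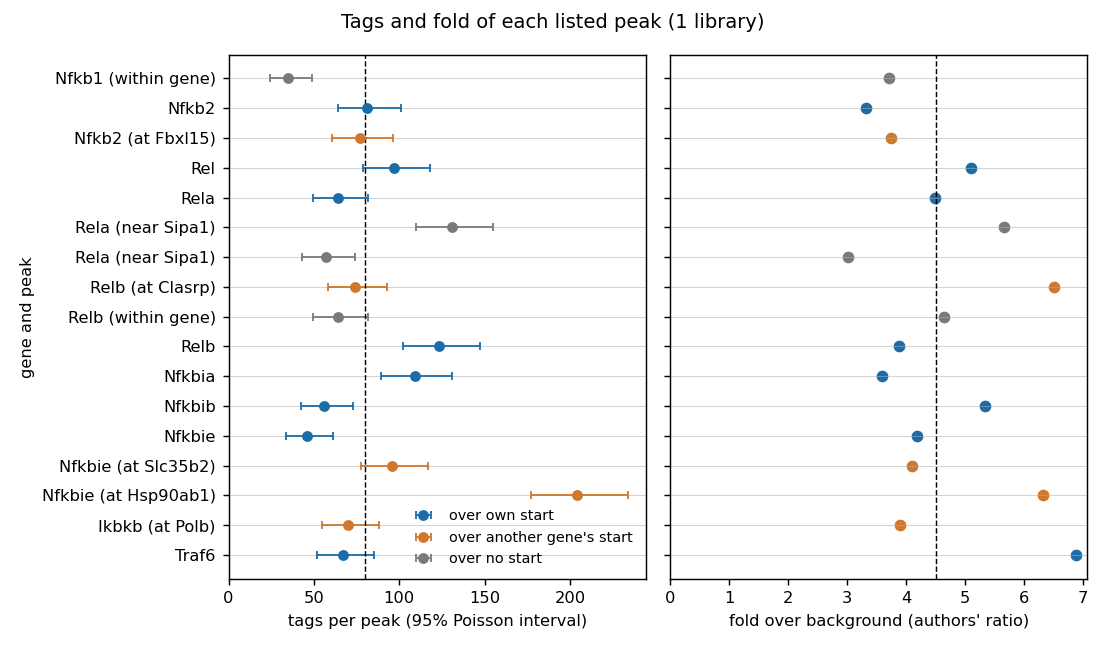
Tags per peak with exact 95% Poisson intervals (left) and the authors' fold over background (right) for the 17 listed peaks, coloured by whether the peak covers the gene's own start, only another gene's start or no start. Dashed lines are the medians of all peaks over a listed start (80.0 tags and a fold of 4.50). The Hsp90ab1 peak listed for Nfkbie has the most tags (204), and Traf6 the highest fold (6.88).

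In strength the 8 genes were near the middle of all genes with a peak over a start. Their scores had a median of 127, against 121 for the 5936 genes (quartiles 81.4 and 200), and 4 of the 8 lay above that median. Their median fold was 4.34, against 4.51, and 3 of the 8 lay above. The median number of tags was 74.0, against 80.0. No peak of the 17 reached a fold of 10. The plot of score against fold places the 8 inside the main cloud, away from its upper end.

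**Figure D3:**
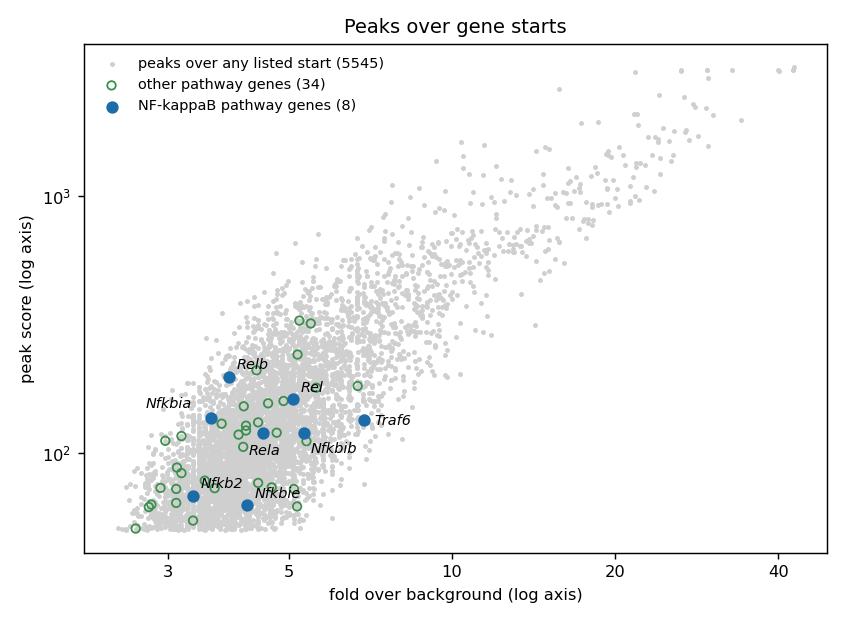
Peak score against fold over background, both on log axes, for the 5545 peaks over a listed start (grey), the highest-scoring peak over a start of each of 34 other pathway genes (open green) and the peaks over the starts of 8 NF-kappaB pathway genes (blue, named). The blue points span scores from 62.2 to 197.9 and folds from 3.33 to 6.88.

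The remaining 9 listed peaks include Nfkb1's and Ikbkb's, and the other 7 were listed for genes that also had a peak at the start. Relb had a further peak inside the gene, at chr7:20200261-20201095, 13692 bp from the start and 8691 bp before the end (64 tags, fold 4.65, score 110.4). The deposited class of this peak is upstream, which refers to its closest gene Clasrp. The last Relb peak lay 1332 bp past the gene's end and covered the start of Clasrp, which encodes a splicing-related protein (74 tags, fold 6.51, score 163.8). For Nfkb2 the other peak lay 15963 bp past the end, the farthest of the peaks past a gene's end, and covered the start of Fbxl15, which encodes an F-box protein (77 tags, fold 3.74, score 94.9).

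Rela was listed for 2 peaks 12492 and 14126 bp past its end, both in Sipa1, which encodes a regulator of Rap signalling. The nearer had 131 tags (110 to 155) at fold 5.66 and score 287.2, and the farther had 57 tags at fold 3.01 and score 57.1. On the other side of Rela the next peak was 26.4 kb from the peak at its start, was closest to Kat5 and was not listed for Rela. Nfkbie was listed for a peak 406 bp past its end that covered the start of Slc35b2, a sugar-nucleotide transporter gene (96 tags, fold 4.10, score 120.9). It was also listed for one 8915 bp past its end over the start of Hsp90ab1, the gene of a constitutive Hsp90 chaperone. That peak had 204 tags (177 to 234) at fold 6.32 and score 361.7, the highest score and tag number of the 17.

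A wider list of 78 other pathway genes, also chosen with earlier results of these data known, was counted in the same way. Of these, 39 had a peak within 5 kb of a start, against 32.7% of background genes. A peak over a start was found at 34, against 28.3% of background genes. The 34 peaks over a start had medians of 111 for the score and 4.15 for the fold. The counts differed by role, with the lowest share among receptors and the highest among negative regulators, as the plot by role shows. The groups hold 3 to 19 genes, and the differences between them were not tested.

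**Figure D4:**
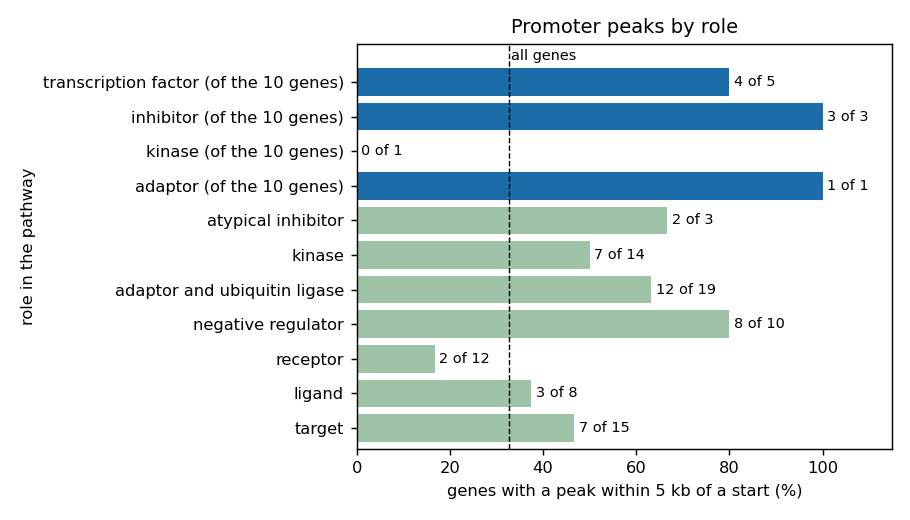
Share of genes with a peak within 5 kb of a start (x axis, %) by role in the pathway (y axis), for the 10 genes (blue) and the wider list (green), with counts beside the bars. The dashed line is the share of all background genes (32.7%). Negative regulators reach 8 of 10 and receptors 2 of 12.

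Among the kinases 7 of 14 had a peak within 5 kb of a start, against 32.7% of background genes. The highest scores were at Tab2 (fold 4.36, score 209.2), Tab1 (fold 6.70, score 181.7) and Map3k7 (fold 4.89, score 158.8), which encode the kinase TAK1 and its binding partners upstream of the IkappaB kinase, and at Map3k3 (fold 4.13, score 151.5). The genes of the other IkappaB kinase subunits had none: Chuk was listed for no peak, and Ikbkg only for a peak 24377 bp from its start that covered the start of Ubl4.

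Among adaptors and ubiquitin ligases 12 of 19 (63.2%) had a peak within 5 kb of a start, against 32.7% of background genes. The highest was at Ube2n, the gene of the conjugating enzyme that works with TRAF6 (154 tags, fold 5.49, score 318.5). The peak of Birc2, an inhibitor-of-apoptosis gene, lay 1272 bp before its start (fold 5.33, score 212.1). Sharpin (fold 4.58, score 155.6) and Rnf31 (fold 3.76, score 129.6) encode parts of the linear ubiquitin ligase, and their peaks also covered the starts of Maf1 and Psme2.

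Among negative regulators 8 of 10 had a peak within 5 kb of a start, against 32.7% of background genes. These included the deubiquitinase genes Tnfaip3 (fold 4.17, score 127.2) and Cyld (fold 4.04, score 117.5), the ribonuclease gene Zc3h12a (fold 3.50, score 77.7) and Tnip2 (fold 4.65, score 73.2). Tnip1 was listed for no peak. Of the 3 atypical inhibitors, Nfkbiz had a peak over its start (fold 4.39, score 131.1), Bcl3 had one 4854 bp inside the gene (fold 4.78, score 80.8), and Nfkbid had none within 5 kb.

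Of the receptor genes 2 of 12 (16.7%), and of the ligand genes 3 of 8 (37.5%), had a peak within 5 kb of a start. The ligand share was near the 32.7% of background genes. Tnfrsf13c, the BAFF receptor gene, had a peak 4928 bp from its start and past its end (fold 4.16, score 83.8), and Tlr4 had one over its start (fold 3.33, score 54.3). Lta had 4 peaks within 5 kb of a start, of which the highest-scoring covered its start (129 tags, fold 5.19, score 241.0). Its neighbour Tnf had 3 peaks within 5 kb of a start. The highest-scoring was the same peak, 2476 bp before the Tnf start, and a lower-scoring one covered the Tnf start. Lta and Tnf were thus the 2 ligand genes with a peak over a start. Ltb had a peak 1069 bp inside the gene (fold 3.56, score 69.5). These genes share 1 locus, so their counts are not independent.

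Among 15 genes known as NF-kappaB targets, 7 (46.7%) had a peak within 5 kb of a start, including Nfkbiz and Tnfaip3 counted above. The share of background genes was 32.7%. Bcl2l1, which encodes the survival protein Bcl-xL, had the highest score (151 tags, fold 5.23, score 326.9), followed by Sod2, a mitochondrial superoxide dismutase gene (fold 5.62, score 179.0). The others of the 7 were Gadd45b (fold 5.39, score 110.7), Cflar (fold 4.62, score 113.5) and Icam1 (fold 2.76, score 61.4). Of the 8 without such a peak, Birc3 was listed for a peak farther away, and Il6, Ptgs2, Cxcl10, Ccl5, Vcam1, Cd83 and Xiap were listed for none.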

How the data were processed

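The submitters' processing notes name the aligner Bowtie (0.12.8), the peak caller MACS (1.4.2) and the build mm9, without parameters. Use of the input as control was not stated. The deposited list covers 1 pull-down library. Its tag numbers are raw counts of reads per peak as deposited by the authors, its fold is the deposited linear ratio over the caller's background, and its deposited score was read as minus 10 log10 p because the lowest value lies just above 50. Positions are given as deposited (counted from 0 or from 1 is unclear), and width was taken as end minus start.

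Genes were matched by symbol or a unique older symbol in the RefSeq table (GRCm38.p6, names and gene class only). The background was all protein-coding genes of chromosomes 1 to 19 and X that have an NM transcript. Distances are the deposited ones, from the peak interval. Each gene entered the comparison of strength with its highest value over a start. The rule for named genes took the 10 genes with every peak, other genes whose start such a peak covers, and up to 4 genes per role by score among those with a peak within 5 kb of a start. Pathway genes named beyond it were picked with their values in view. The members and lists were chosen with earlier results of these data known. The counting was tested on simulated peaks that each listed 1 gene under its current symbol. Lists of several genes and older symbols were not tested. Alternatives were stricter peaks, the closest gene only, accession matching and other distances. Python 3.11.15, pandas 2.3.3 and scipy 1.17.1 were used.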

Additional observations from a re-analysis of the deposited data

How the results depend on the processing

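Of 31 alternative values, 22 stayed within 1.5 times the reported ones. With only peaks of fold 10 or more, 0 of the 10 genes were listed, 0 had a peak within 5 kb of a start, 0 had a peak over a start, 0 of the 78 other pathway genes had a peak within 5 kb, and the background share with a peak within 5 kb fell to 1.48%. With scores of 100 or more, a peak within 5 kb of a start was found at 6 of the 10 genes, 23 other pathway genes and 19.7% of background genes. With the peaks at or above the median score these were 6, 23 and 18.8%. The 2 genes lost from the 8 in both were Nfkb2 and Nfkbie, because their start peaks scored lower. With the closest gene only, 9 of 10 genes were listed, since the closest gene of the Ikbkb peak is Polb, and 8 had a peak over a start. A peak within 5 kb of a start was then found at 8 of the 10 genes, 36 other pathway genes and 27.6% of background genes. With all listed genes and a distance of 25 kb these were 8, 52 and 44.0%, and with a distance of 1 kb they were 8, 34 and 30.1%. No paired analysis was possible because each group has 1 library. Depth is unknown, the tag intervals cover counting error only, and the spread between cultures cannot be seen.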

Other observations

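Some of the strongest peaks listed for pathway genes lay at the starts of their neighbours, in genes picked after their values were seen. Cd40, which encodes a co-stimulatory receptor of B cells, was listed for 1 peak, 20398 bp before its start, with 227 tags at fold 16.49 and score 939.7, and this peak covered the start of Ncoa5. Pdlim2, whose product promotes the degradation of p65, was listed for a peak 10110 bp past its end that covered the start of 2610301G19Rik (174 tags, fold 11.53, score 657.8). Myd88, the adaptor gene of Toll-like receptors, was listed for a peak over the start of Oxsr1 (149 tags, fold 4.31, score 298.3). None of the 3 genes had a peak within 5 kb of its own start.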
